A study of Mus musculus with 6 samples.

Results

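The integrated stress response and the unfolded protein response were followed through 36 genes, chosen by symbol for their known roles: 3 sensors of ER stress with *Xbp1* (4 genes), 9 regulators around *Atf4*, 6 enzymes and 3 transporters of amino acids, 12 chaperones and folding enzymes of the endoplasmic reticulum (ER) and 2 genes of ER-associated degradation. All 36 were found among the 55357 genes counted, and all 36 were among the 21876 genes tested, those with 6 or more reads in any library. The cells were primary neuronal cultures of cortex and hippocampus from wild-type C57BL/6N mouse embryos at E18, kept until DIV14, 14 days in vitro. At DIV4 they received a lentivirus, either a control hairpin (shCtrl, 3 libraries) or a hairpin named sh2 that targets *Pla2g4e* (sh*Pla2g4e*, 3 libraries). Cultures of both groups were thus transduced, with the same amount of virus, at a dose chosen to lower the *Pla2g4e* transcript only in part, and 1 hairpin sequence stands for the knockdown. Nothing in the labels says whether the libraries came from separate cultures, so that the p-values measure the spread between these samples, which may be technical.

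In the integrated stress response, kinases that sense amino acid shortage, double-stranded RNA, heme lack or ER stress phosphorylate the translation factor eIF2. General translation then slows while the transcription factor Atf4 is made, which turns on genes of amino acid supply and, under lasting stress, *Ddit3*. The unfolded protein response starts in the ER membrane with the sensors PERK (*Eif2ak3*), IRE1 (*Ern1*) and Atf6, and raises chaperones, folding enzymes and ER-associated degradation, which neurons use for their large output of receptors and channels. Atf4 is controlled mainly by translation, IRE1 acts by splicing *Xbp1*, and Atf6 is cut to become active. None of these steps can be read from counts of whole genes.

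Between 17054717 and 23570180 reads were counted per library. *Pla2g4e* itself stood at 38.0, 35.1 and 35.4 CPM (the read count scaled to library size with TMM factors) in shCtrl replicates 1 to 3 and at 21.8, 14.1 and 18.7 CPM in sh*Pla2g4e*, a log2 fold change of −0.99 (SE 0.13, adjusted p = 0.000124). Differences were tested with edgeR's quasi-likelihood test, Benjamini-Hochberg adjusted over all genes tested, at a threshold of 0.01. Over all genes 543 rose (2.48%) and 876 fell (4.00%). Scaling by library size alone turned this split round, with 43.3% of the called genes falling in place of 61.7%. In a fit with the replicate number as a block, 6.50% rose and 9.02% fell.

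Stress-response genes were higher rather than lower in most cases, by small amounts. Of the 36 members, 24 had a positive and 12 a negative log2 fold change, with a median of 0.18 against 0.03 over all genes tested. Past the threshold upwards were 5 of 36 (13.9%), against the 2.48% of all genes, namely *Ddit3*, *Ddit4*, *Hspa5*, *Hsp90b1* and *Dnajb9*. The member that fell was *Edem1*, 1 of 36 (2.78%) against 4.00%. On the log2 scale the largest difference in either direction was that of *Edem1*, at −0.78. With the replicate block 14 of 36 members rose and 2 fell, *Slc7a11* being the other, against 6.50% and 9.02% of all genes. In 14 members all 3 sh*Pla2g4e* libraries lay above all 3 shCtrl libraries and in 1 member all lay below, where 15.5% and 14.6% of all genes tested did so.

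**Figure D1:**
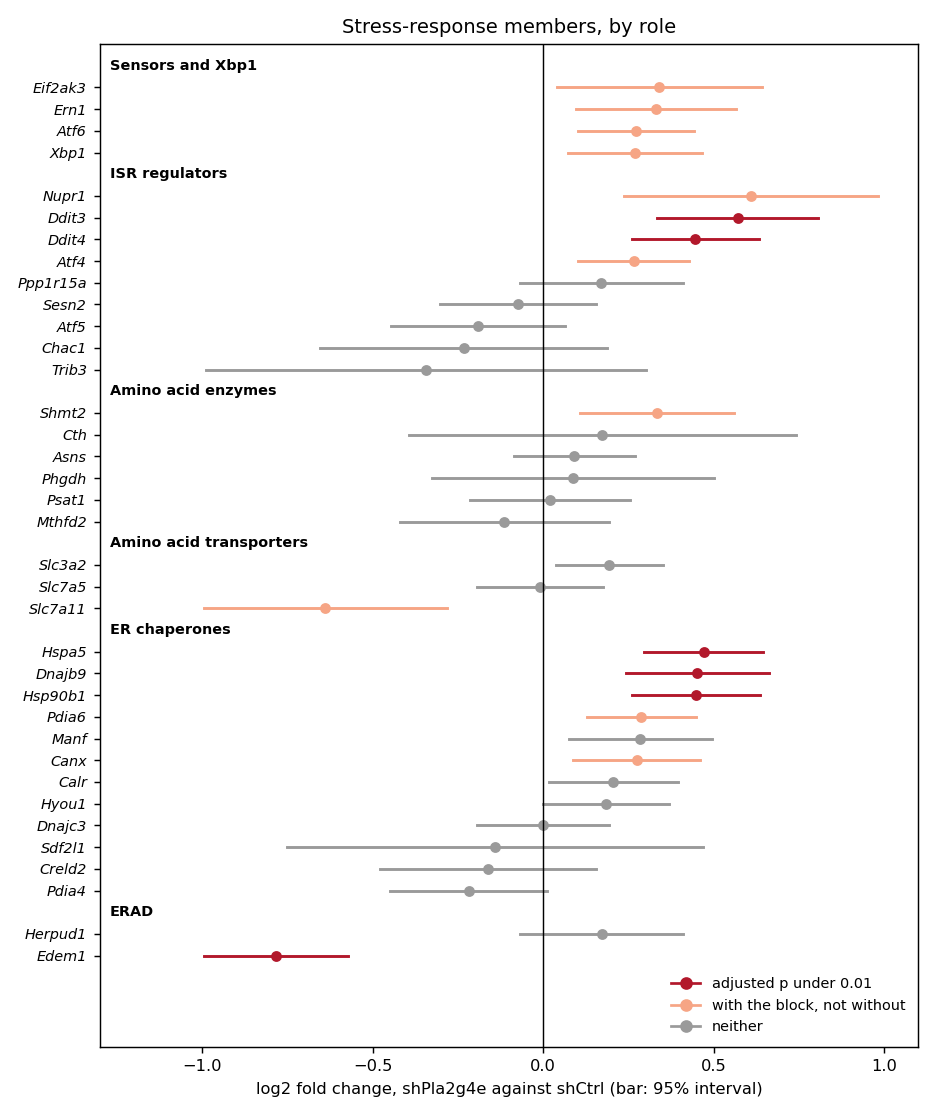
Log2 fold change of sh*Pla2g4e* against shCtrl for the 36 members, grouped by role, with bars for the 95% interval from edgeR. The dark red points are the 5 members that rose and *Edem1*, which fell, at adjusted p under 0.01, and the 10 light ones passed with the replicate block but not in the fit without it.

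How many calls upwards were made depended on single libraries. Between 0 and 7 members rose when 1 library was left out. None was called without shCtrl replicate 2, 1 (*Hspa5*) without sh*Pla2g4e* replicate 2, and 7 without sh*Pla2g4e* replicate 3, when *Eif2ak3* and *Xbp1* joined them. Without shCtrl replicate 2, the log2 fold changes of the 5 were 0.49 for *Hspa5*, *Hsp90b1* and *Ddit3*, 0.43 for *Ddit4* and 0.41 for *Dnajb9*, with adjusted p from 0.0107 to 0.0484, in a fit with 1 sample fewer. *Edem1* was called in all 17 alternative settings tried.

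The 4 genes at the top of the unfolded protein response were all higher in the knockdown. edgeR, limma after voom and DESeq2 called 0 of the 4, and all 4 rose with the replicate block, against 6.50% of all genes. At an unadjusted p under 0.05 all 4 were higher, as were 12.8% of all genes tested, while 12.9% were lower. *Eif2ak3*, which encodes the eIF2 kinase of the ER membrane, measured 41.8, 32.5 and 29.8 CPM in shCtrl replicates 1 to 3 and 49.4, 48.1 and 33.8 CPM in sh*Pla2g4e*. The groups overlapped, since sh*Pla2g4e* replicate 3 lay below shCtrl replicate 1, and the log2 fold change of 0.34 had an adjusted p of 0.139 (0.00282 with the block). *Ern1*, the kinase and RNase that splices *Xbp1*, measured 22.9, 28.7 and 23.4 CPM against 30.1, 34.3 and 29.9 CPM. Here the groups were apart, by a narrow margin, at a log2 fold change of 0.33 (adjusted p = 0.0622, with the block 0.00532).

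*Atf6*, the membrane-bound transcription factor, gave 72.1, 68.3 and 66.4 CPM in shCtrl and 84.2, 86.6 and 78.8 CPM in sh*Pla2g4e*. This was the tightest of the 4 differences, with no overlap and a log2 fold change of 0.27 (95% interval 0.10 to 0.44, adjusted p = 0.0334, with the block 0.00269, by library size alone 0.00685). *Xbp1*, the factor made from the spliced message, gave 77.6, 72.1 and 72.4 CPM against 91.3, 98.9 and 77.1 CPM, with the third knockdown library within the control range (log2 fold change 0.27, adjusted p = 0.071, with the block 0.00451). In all 4 genes sh*Pla2g4e* replicate 3 was the lowest of its group. Per kilobase of exon *Xbp1* was the most abundant of them in shCtrl, at 22.8 CPM per kb, against 7.47 for *Atf6*, 5.76 for *Eif2ak3* and 3.06 for *Ern1*.

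Among the regulators of the integrated stress response, 2 of 9 rose, and the others ran in both directions. *Ddit3*, which encodes the transcription factor CHOP known for its part in cell death under lasting ER stress, measured 26.2, 21.3 and 24.3 CPM in shCtrl and 31.8, 39.6 and 35.4 CPM in sh*Pla2g4e*. Every knockdown library lay above every control library, and *Ddit3* was 48.6% higher (log2 fold change 0.57, SE 0.11, adjusted p = 0.00268). Its exons share 6.13% of their bases with other genes on the same strand and 4.73% on the other strand. *Ddit4*, encoding REDD1, an inhibitor of mTORC1 that also answers to low oxygen and glucocorticoids, measured 70.1, 66.4 and 67.0 CPM against 86.1, 104 and 87.5 CPM. It rose by 36.2% (log2 fold change 0.45, SE 0.09, adjusted p = 0.00286), again without overlap, and its control libraries were closer together than those of the knockdown.

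*Atf4* was the most abundant of the regulators per kilobase, at 69.0 CPM per kb in shCtrl, and its level of 156, 169 and 163 CPM compared with 199, 186 and 202 CPM in the knockdown. The groups did not overlap and the difference was 20.2% (log2 fold change 0.27, adjusted p = 0.0312, with the block 0.00101), and DESeq2 (0.00968) and edgeR by library size alone (0.00551) called it as well. *Nupr1*, a small chromatin-associated stress protein, had the largest positive fold change of the module at a low level, with 7.03, 4.93 and 6.13 CPM against 10.4, 8.14 and 9.08 CPM (log2 fold change 0.61, 95% interval 0.24 to 0.98, adjusted p = 0.0307, with the block 0.0014).

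The remaining regulators gave no call in either fit. *Ppp1r15a*, whose product GADD34 brings a phosphatase to eIF2, had a log2 fold change of 0.17 (95% interval −0.07 to 0.41). The values of the other 4 were negative, at −0.34 for the pseudokinase gene *Trib3*, −0.23 for *Chac1*, which degrades glutathione, −0.19 for *Atf5* and −0.07 for *Sesn2*, a leucine sensor upstream of mTORC1. With 1 library left out the range was −0.576 to −0.101 for *Trib3*, −0.467 to −0.0312 for *Chac1* and −0.368 to −0.0749 for *Atf5*. *Trib3* was near the lower end of the module in level, at 1.44 CPM per kb in shCtrl, and its interval ran from −0.99 to 0.30, the widest of the regulators. *Ddit3* and these genes are all known as targets of Atf4, and differences between them were not tested.

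**Figure D2:**
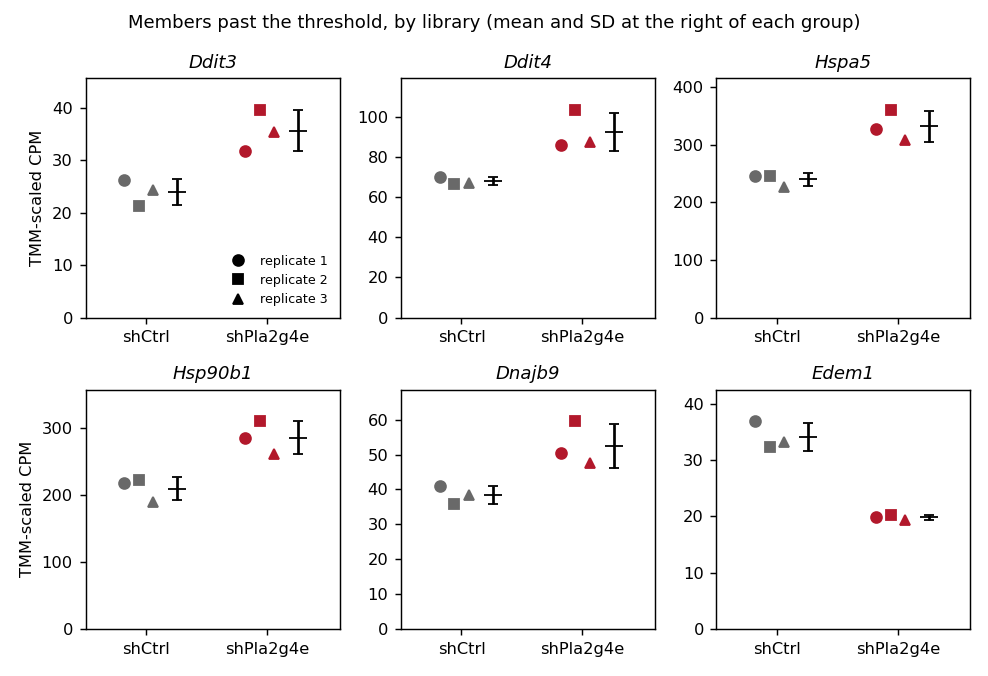
TMM-scaled CPM of the 6 members past the threshold in each of the 6 libraries, with the symbol giving the replicate number and the bar the mean and SD of 3 libraries. The groups are apart in all 6 panels, and sh*Pla2g4e* replicate 2 is the highest library for each of the 5 genes that rose.

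Genes of amino acid supply, the best known output of Atf4, gave no call among 9 members. limma after voom called none of them either, DESeq2 called *Slc7a11* alone, and at an unadjusted p under 0.05 2 of the 9 were higher and 1 lower, against 12.8% and 12.9% of all genes. *Asns*, asparagine synthetase and the most abundant of the enzymes per kilobase (52.5 CPM per kb in shCtrl), measured 157, 140.4 and 133 CPM against 151, 146 and 162 CPM. The groups overlapped throughout, and the interval of its log2 fold change, −0.09 to 0.27, leaves out a change of the size seen for *Ddit3* in either direction. The serine synthesis genes *Psat1* and *Phgdh* had log2 fold changes of 0.02 (95% interval −0.22 to 0.25) and 0.09 (−0.33 to 0.50). The level of *Phgdh* is uncertain, since other genes share 63.1% of the 50-base stretches of its transcript.

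The mitochondrial one-carbon enzyme *Shmt2* had the smallest p of the enzymes. It measured 49.9, 48.4 and 50.3 CPM in shCtrl, the tightest control group of the 6 enzymes for its level, and 56.8, 55.5 and 75.1 CPM in sh*Pla2g4e*, where replicate 3 was far above the other two. Its log2 fold change was 0.33 (adjusted p = 0.0509, with the block 0.00135, without a filter 0.00734). Without sh*Pla2g4e* replicate 3 *Shmt2* had 0.18 (adjusted p = 0.226). Its partner *Mthfd2* had −0.11 and the cysteine-making *Cth*, the least abundant member at 1.13 CPM per kb in shCtrl, 0.17, both with intervals on either side of 0.

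Within the knockdown, all 6 enzymes and all 3 transporters were highest in replicate 3. In shCtrl, replicate 3 was the highest for 5 of the 6 enzymes, and for the 3 transporters the highest for 1 and the lowest for 2. Replicate 3 of the knockdown was also its highest library for the summed markers of several cell types. These were endothelial and mural markers (30.7, 29.2 and 74.0 CPM in sh*Pla2g4e* replicates 1 to 3), progenitor markers (134, 177 and 181 CPM) and astrocyte markers. The summed level of 10 astrocyte markers was 2141, 1972 and 3158 CPM in sh*Pla2g4e* replicates 1 to 3 and 2895, 3264 and 3701 CPM in shCtrl. Of these markers 3 fell, *Aqp4* (log2 fold change −1.19), *Gja1* (−0.66) and *Slc1a2* (−0.50), and *Gfap* had −0.62 (adjusted p = 0.0267, with the block 6.26e-12). With the block 6 of the 10 fell, *Slc1a3* and *Aldoc* being the others, and 1 rose, against 9.02% and 6.50% of all genes. Of the 10, 3 had positive fold changes, and the one that rose with the block was *S100b*, at 1.46, 1.26 and 2.40 CPM in shCtrl and 3.22, 4.81 and 3.09 CPM in sh*Pla2g4e* (log2 fold change 1.11, adjusted p = 0.0211, with the block 0.000963). Serine synthesis is known to be strong in astrocytes. In RNA of whole cultures fewer cells of a type and less RNA per cell cannot be told apart, and the part of astrocytes in the levels of the enzymes was not tested.

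*Slc7a11* and *Slc3a2* encode the light and heavy chain of the cystine and glutamate exchanger, and they had opposite signs. *Slc7a11* stood at 48.4, 28.9 and 53.4 CPM in shCtrl and at 29.0, 24.4 and 30.6 CPM in sh*Pla2g4e*. The control replicate 2 lay among the knockdown libraries, and the log2 fold change of −0.64 missed the threshold (95% interval −0.996 to −0.283, adjusted p = 0.0189). With the block, which pairs the low control with the low knockdown library, it was −0.60 (adjusted p = 3.74e-07), and without shCtrl replicate 2 *Slc7a11* was called as well. *Slc3a2*, which also carries the neutral amino acid transporter *Slc7a5* to the membrane, stood at 249, 254 and 247 CPM against 278, 287 and 293 CPM. Its groups were far apart for their spread, at a log2 fold change of only 0.19 (adjusted p = 0.102, with the block 0.0156). *Slc7a5* was flat at −0.01, with an interval of −0.20 to 0.18.

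**Figure D3:**
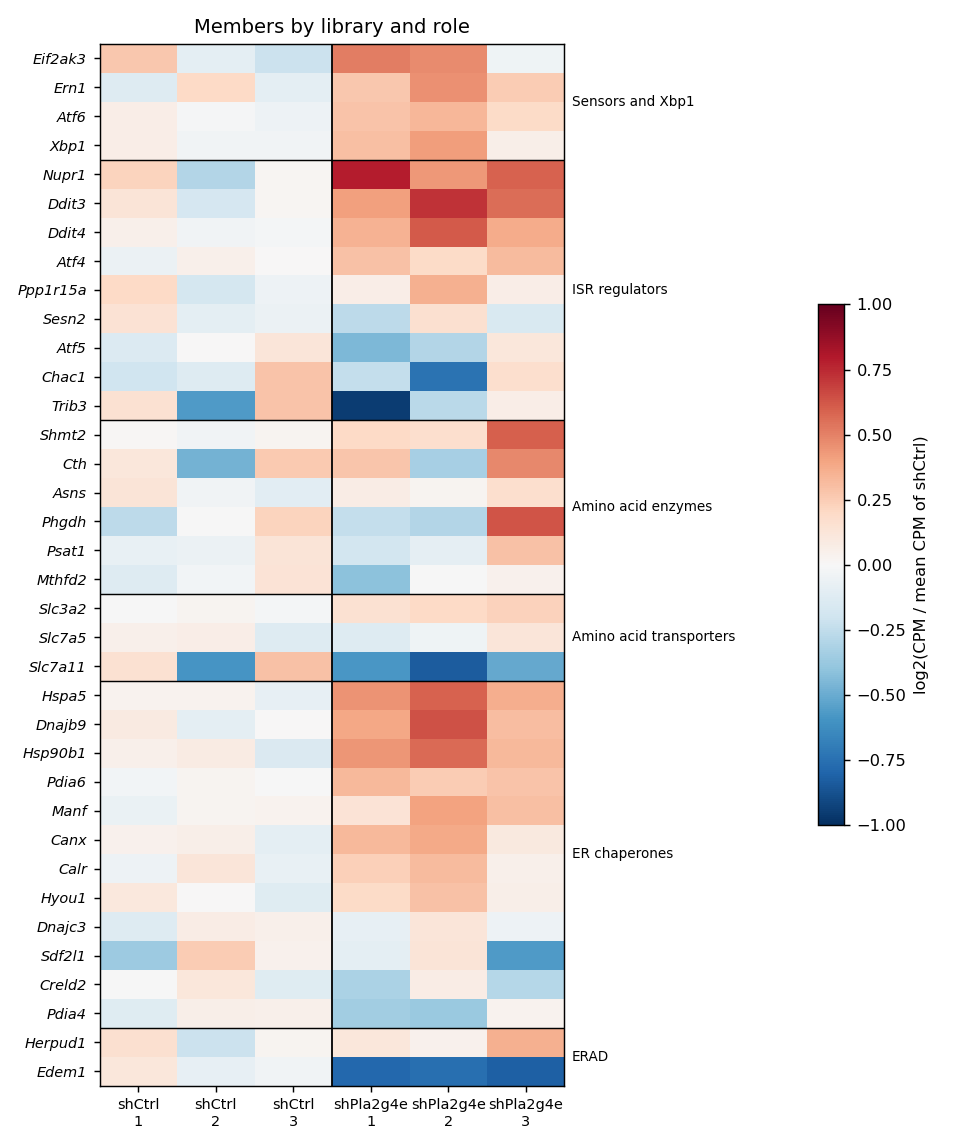
Level of each member in each library as log2 of its CPM over the mean CPM of the 3 shCtrl libraries, with the members ordered by role and fold change. The red rows of the sensors, *Xbp1*, *Hspa5*, *Dnajb9*, *Hsp90b1* and *Canx* are strongest in sh*Pla2g4e* replicates 1 and 2. Within the knockdown the amino acid enzymes are highest in replicate 3, and *Edem1* is blue in all 3 knockdown libraries.

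The ER chaperones held 3 of the 5 members that rose, and as a group of 12 they summed to 1472 to 1621 CPM in shCtrl and 1754 to 2043 CPM in sh*Pla2g4e*, 22.4% more on average. Of the 12, 8 had positive fold changes and 4 negative ones. *Hspa5*, encoding BiP, the main Hsp70 chaperone of the ER lumen and the protein that holds the sensors inactive, measured 246, 246 and 227 CPM in shCtrl and 327, 360.5 and 308 CPM in sh*Pla2g4e*. It rose by 38.5% (log2 fold change 0.47, SE 0.08, adjusted p = 0.00123), the smallest adjusted p among the members that rose, and was called in 16 of the 17 alternative settings, with an adjusted p of 0.0107 without shCtrl replicate 2. *Hsp90b1*, the Hsp90 of the ER, measured 217, 221 and 189 CPM against 284, 309.7 and 261 CPM. Its log2 fold change was 0.45 (SE 0.09, adjusted p = 0.00312), and 5.38% of its exon bases lie in other genes on the same strand and 10.3% on the other.

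*Dnajb9*, a J-domain partner of BiP, measured 40.9, 35.9 and 38.5 CPM against 50.4, 59.6 and 47.6 CPM and rose by 36.7% (log2 fold change 0.45, SE 0.10, adjusted p = 0.00612). With 1 library left out its log2 fold change was 0.35 to 0.52, and in 5 of the 6 cases the adjusted p was above the threshold, from 0.0111 to 0.0484. All 3 genes were lowest in replicate 3 and highest in replicate 2 of the knockdown. Among the 12 chaperones replicate 2 was the highest knockdown library for 10 and replicate 3 the lowest for 7.

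Another 2 chaperones passed with the block but missed the threshold in edgeR's fit without it. *Pdia6*, a protein disulfide isomerase, had 96.0, 99.7 and 97.7 CPM in shCtrl and 123, 116 and 119 CPM in sh*Pla2g4e*, a small difference between tight groups (log2 fold change 0.29, adjusted p = 0.0177, with the block 0.000686). DESeq2 also called it (adjusted p = 0.00532), as did edgeR with upper-quartile scaling, by library size alone and with at least 10 reads in every library (0.00337 to 0.00879). *Canx*, the membrane-bound lectin chaperone calnexin, had 411, 416 and 373 CPM against 500.4, 522 and 429 CPM, without overlap (log2 fold change 0.27, adjusted p = 0.0531, with the block 0.000371), and it was called by library size alone as well (0.00875).

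Its soluble counterpart calreticulin, *Calr*, was the most abundant member per kilobase, at 101 CPM per kb in shCtrl and 116 in sh*Pla2g4e*. It gave 280.0, 315 and 275 CPM against 343, 360.4 and 299.9 CPM, and the groups overlapped at a log2 fold change of 0.21 (adjusted p = 0.153, with the block 0.0101). *Manf*, a secreted trophic factor of stressed ER, had a log2 fold change of 0.29 without overlap (adjusted p = 0.0704), and the nucleotide exchange factor *Hyou1* had 0.18. At the other end *Dnajc3*, a J-domain protein known to restrain eIF2 kinases, gave 45.4, 52.1 and 51.5 CPM against 47.01, 53.86 and 48.05 CPM. Its interval of −0.19 to 0.19 leaves out the fold change of *Hspa5*. *Pdia4*, *Creld2* and *Sdf2l1* had −0.22, −0.16 and −0.14, none of them called in either fit.

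The promoters of several chaperones carried the same element. The ER stress response element, ERSE, was searched as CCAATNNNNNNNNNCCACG on both strands in RefSeq promoters (GRCm38.p6) from 250 bases before to 50 bases after the start of a gene. A promoter was matched for 31 of the 36 members. *Atf6*, *Cth*, *Slc7a5*, *Hyou1* and *Manf* were not matched. ERSE was found in 7 members, all of them chaperones or folding enzymes, and in 39 of all 32851 promoters (0.119%). Since the members were chosen for their known roles in these responses, setting these shares side by side is not a test. These stretches are shown because members that rose and members that did not carry the same element. Each is written 5′ to 3′ on the strand of its gene, with the element, in either orientation, in capitals.
Hspa5, chr2:34772020-34772048 (+): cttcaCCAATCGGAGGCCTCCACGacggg
Hsp90b1, chr10:86705633-86705661 (-): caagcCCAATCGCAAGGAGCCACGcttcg
Hsp90b1, chr10:86705528-86705556 (-): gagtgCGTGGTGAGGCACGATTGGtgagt
Canx, chr11:50325795-50325823 (-): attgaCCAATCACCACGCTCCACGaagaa
Pdia6, chr12:17266486-17266514 (+): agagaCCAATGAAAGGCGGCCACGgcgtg
Calr, chr8:84847070-84847098 (-): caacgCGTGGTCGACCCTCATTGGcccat
Dnajc3, chr14:118937822-118937850 (+): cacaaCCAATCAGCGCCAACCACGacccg
Creld2, chr15:88819515-88819543 (+): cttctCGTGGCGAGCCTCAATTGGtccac

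Of the 7 genes with the element, *Hspa5* and *Hsp90b1* rose, *Canx* and *Pdia6* passed with the block, and *Calr*, *Dnajc3* and *Creld2* passed in neither fit, with log2 fold changes from −0.16 to 0.47 and a median of 0.27. *Dnajb9*, *Ddit3*, *Ddit4* and *Edem1* have no ERSE in this window, which says only that these letters are not there. *Pdia4* and *Herpud1* carry the element without its last base, a form found in 0.365% of all promoters. The wider upstream sequence of *Hspa5*, which had the smallest p of the genes with ERSE, and of the flat *Dnajc3*, both on the plus strand, is given for the 250 bases before the start, with ERSE in capitals.
Hspa5, chr2:34771840-34772089: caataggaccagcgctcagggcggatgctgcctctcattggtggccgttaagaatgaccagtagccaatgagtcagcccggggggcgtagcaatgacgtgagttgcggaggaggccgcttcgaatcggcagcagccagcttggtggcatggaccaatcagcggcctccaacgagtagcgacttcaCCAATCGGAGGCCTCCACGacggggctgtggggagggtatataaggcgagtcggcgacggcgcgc
Dnajc3, chr14:118937682-118937931: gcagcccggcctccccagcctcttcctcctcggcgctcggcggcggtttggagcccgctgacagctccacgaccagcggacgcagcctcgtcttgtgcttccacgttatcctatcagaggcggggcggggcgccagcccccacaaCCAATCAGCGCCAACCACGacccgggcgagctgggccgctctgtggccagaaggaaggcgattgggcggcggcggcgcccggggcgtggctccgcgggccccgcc

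The element bound by Atf4 with C/EBP factors, CARE, was searched by its core TGATGNAA on both strands. It was found in 6 members, *Trib3*, *Nupr1*, *Chac1*, *Asns*, *Slc7a11* and *Herpud1*, and in 3.97% of all promoters. None of the 6 passed the threshold in either direction. *Nupr1* rose and *Slc7a11* fell with the block, and the median log2 fold change of the 6 was −0.07, against 0.21 for the other 25 members with a promoter. The 25 include *Ddit3*, and lacking the core says only that these letters are not in this window. The stretches, with the core in capitals, are those of *Nupr1*, with the highest fold change of the 6, of *Trib3* and *Slc7a11*, with the lowest, and of the flat *Asns*.
Nupr1, chr7:126625562-126625591 (-): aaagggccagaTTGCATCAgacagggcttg
Asns, chr6:7693214-7693243 (-): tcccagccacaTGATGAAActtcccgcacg
Trib3, chr2:152344028-152344057 (-): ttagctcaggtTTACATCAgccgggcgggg
Slc7a11, chr3:50443661-50443690 (-): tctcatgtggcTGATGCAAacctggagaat
Slc7a11, chr3:50443642-50443671 (-): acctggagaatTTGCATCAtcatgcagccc

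The compact ERSE-II, in which ATTGG and CCACG stand 1 base apart, was found in *Herpud1* alone among the members and in 0.0365% of all promoters, and the core of the unfolded protein response element, TGACGTGG, in 0 of the 31 against 0.676%.

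**Figure D4:**
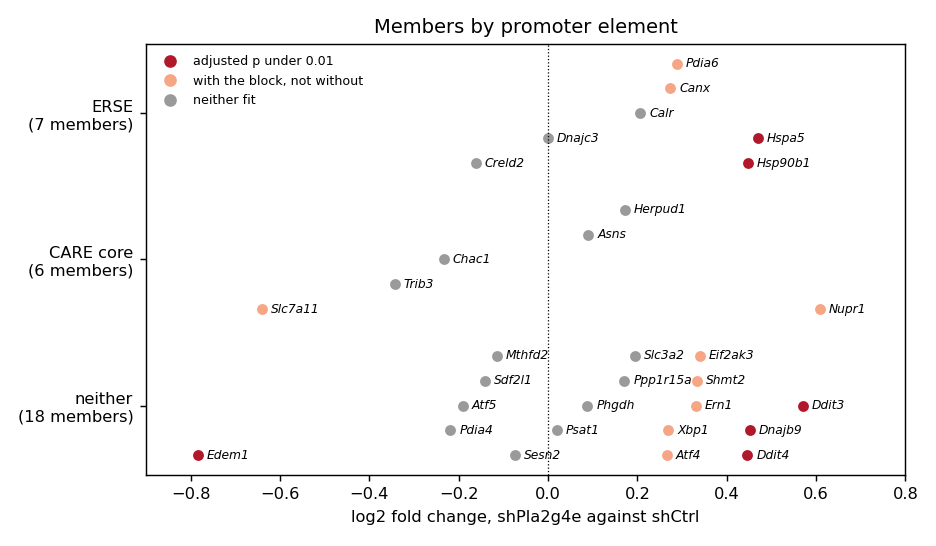
Log2 fold change of the 31 members with a RefSeq promoter, by the element found in it, colored by call. The 7 members with ERSE run from −0.16 to 0.47, the 6 with the CARE core from −0.64 to 0.61, and *Ddit3*, *Ddit4*, *Dnajb9* and *Edem1* are among the 18 with neither.

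The member that fell in the fit without the block belongs to ER-associated degradation. *Edem1*, a lectin that hands misfolded glycoproteins to degradation and a known target of *Xbp1*, measured 37.0, 32.3 and 33.3 CPM in shCtrl and 19.9, 20.3 and 19.4 CPM in sh*Pla2g4e*. The 3 knockdown libraries were within 1 CPM of each other and far below the controls, a fall of 41.9% (log2 fold change −0.78, SE 0.10, 95% interval −0.99 to −0.57, adjusted p = 7.82e-05). Over the 17 settings its log2 fold change stayed between −0.82 and −0.71. *Edem1* lies on chromosome 6 (GRCm39, 108805602 to 108836317, plus strand) and its exons overlap no other gene. *Herpud1*, an ER membrane protein of the degradation complex, measured 38.3, 29.5 and 34.9 CPM against 37.0, 35.2 and 43.7 CPM, with overlapping groups (log2 fold change 0.17, 95% interval −0.07 to 0.41).

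A guide of an shRNA can act on other transcripts through its seed, bases 2 to 8, and the knockdown rests on 1 hairpin, so that the site of the sh2 seed was looked for in the members. The guide has 19 bases. It is written here with its seed in capitals, followed by its target in *Pla2g4e* and by the seed sites in the 3′ UTRs of the members with the lowest fold changes and of *Atf6*, with the site in capitals.
sh2 guide: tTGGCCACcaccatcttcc
sh2 target in Pla2g4e: ggaagatggtgGTGGCCAa
Edem1: ctcacctcaatGTGGCCAgaacttaaacc
Slc7a11: caggggcataaGTGGCCAgagggaagtgg
Atf6: tgggctaccctGTGGCCAtgtccttcctg
Atf6: cagaagttaagGTGGCCAcagcacaggtc

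The site begins at position 16 of the *Edem1* 3′ UTR. In all, 6 of 36 members (16.7%) held it in the 3′ UTR of their longest coding transcript, against 13.4% of 15654 genes tested, and 11 of 36 (30.6%) held it in the coding sequence, against 25.3% of 15816. The 6 were *Edem1*, *Slc7a11*, *Chac1*, *Hyou1*, *Ern1* and *Atf6*, of which 3 had negative and 3 positive log2 fold changes, with a median of −0.02. Of the 30 members without it 21 had positive and 9 negative ones, with a median of 0.18. *Atf6* with 2 sites was higher in every knockdown library. The same held for *Ern1*, whose site alone of those found is followed by an A, as in the *Pla2g4e* target. The sites of *Ern1*, *Chac1* and *Hyou1* are not shown. No library with another hairpin against *Pla2g4e* was analysed here, and whether the seed acted on *Edem1* was not tested.

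Beyond the 36 members, 132 other genes of the same pathways were tested, 59 of the integrated stress response and 73 of the unfolded protein response and the ER. Of these 8 rose (6.06%) and 2 fell (1.52%), against 2.48% and 4.00% of all genes, and 93 of 132 had positive fold changes (53.5% of all genes tested did). With the block 28 rose and 11 fell, against 6.50% and 9.02% of all genes, with 11 and 8 of these in the integrated stress response list. In the integrated stress response *Atf3*, a stress-induced transcription factor downstream of Atf4, measured 8.05, 7.55 and 6.48 CPM in shCtrl and 15.2, 26.8 and 10.2 CPM in sh*Pla2g4e*, a log2 fold change of 1.25 (SE 0.25, adjusted p = 0.00361) with a wide spread in the knockdown. *Stc2*, a secreted glycoprotein, rose from 17.3 ± 2.62 to 33.8 ± 1.76 CPM (mean ± SD, n = 3; log2 fold change 0.97), the proline enzyme *Pycr1* from 18.7 ± 1.7 to 36.9 ± 7.99 CPM (0.98) and the glutamine transporter *Slc1a5* from 16.2 ± 1.7 to 25.8 ± 1.34 CPM (0.67).

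Both genes that fell belonged to this list as well. *Got1*, the cytosolic aspartate aminotransferase, measured 145, 107 and 123 CPM in shCtrl and 54.4, 48.04 and 55.1 CPM in sh*Pla2g4e* (log2 fold change −1.25, SE 0.10, adjusted p = 1.83e-06). *Eif2b5*, the catalytic subunit of the exchange factor that phosphorylated eIF2 blocks, fell by 22.8% (log2 fold change −0.37, adjusted p = 0.00656). None of the 12 tRNA synthetases, a further class of Atf4 targets, was called by edgeR, voom or DESeq2 (2 higher and 2 lower at an unadjusted p under 0.05, 2 lower with the block), and their median log2 fold change was 0.05. The largest fold change of the list, 1.47 for the secreted stress factor *Gdf15* at 0.679 to 3.98 CPM, passed with the block but not without it (adjusted p = 0.0243, with the block 0.00171), and it was named after its value was seen.

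In the unfolded protein response and ER list 4 genes rose and edgeR called 0 lower (6 at an unadjusted p under 0.05, and 1 each by voom and DESeq2). With the block 17 rose and 3 fell, *Mbtps2*, *Tmbim6* and *Sec61a1*, which were named after their values were seen. *Wfs1*, an ER membrane protein that dampens ER stress, measured 65.1, 58.8 and 46.7 CPM against 93.5, 127 and 85.9 CPM (log2 fold change 0.85, adjusted p = 0.000622). The other three act where proteins enter the ER. *Spcs3*, a subunit of the signal peptidase, was at 66.8, 69.7 and 62.7 CPM against 105, 104 and 103 CPM, the tightest of them (log2 fold change 0.65, adjusted p = 4.85e-05), *Ssr2* of the translocon had 0.53 and *Serp1*, which protects nascent proteins at the translocon, 0.52. Among the 18 other chaperones and folding enzymes 14 had positive fold changes, and 0 were called by edgeR and voom, 1 by DESeq2 and 4 with the block. At an unadjusted p under 0.05, 9 of the 18 were higher and 1 lower, against 12.8% and 12.9% of all genes. Of 11 genes of transport from the ER to the Golgi, 6 were higher and 0 lower at that level. There edgeR, voom and DESeq2 called 0, and the block called 4 higher. Among the 13 other genes of ER-associated degradation edgeR, voom and DESeq2 called 0 in either direction, with 3 higher and 1 lower at an unadjusted p under 0.05, and the block called 1 higher.

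**Figure D5:**
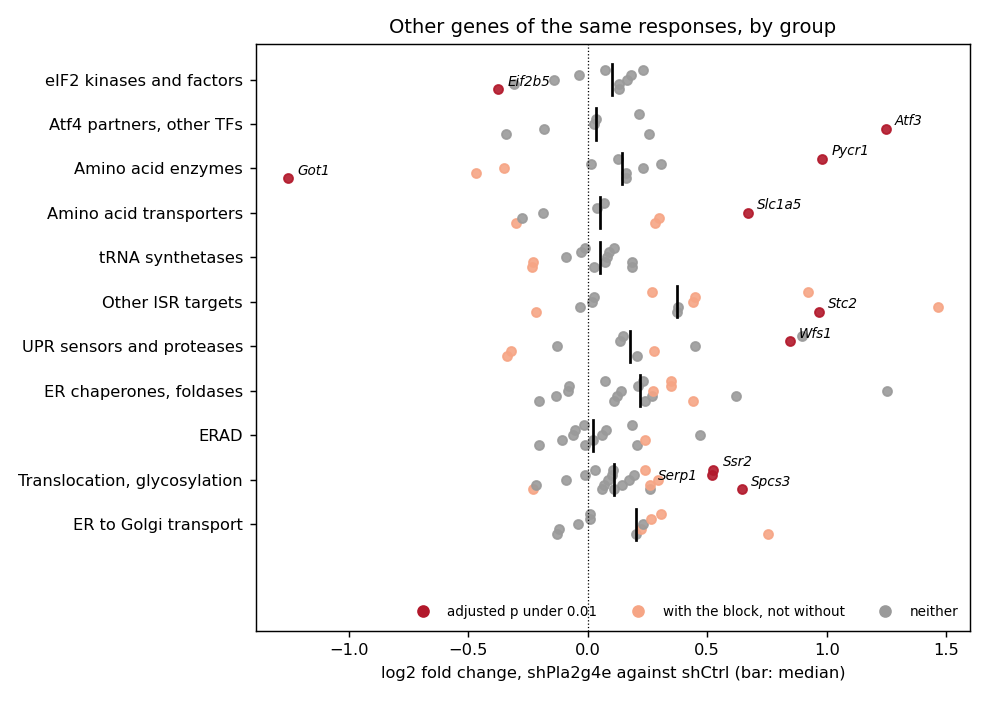
Log2 fold change of the 132 other pathway genes by group, with the median of each group as a bar. The 10 labelled genes passed the threshold, 8 upwards and *Got1* and *Eif2b5* downwards, and the medians of all 11 groups are at or above 0.02.

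A pair of neighboring stress responses was read for comparison. Of 13 cytosolic heat shock genes, which answer to HSF1 and not to ER stress, none rose by edgeR, voom or DESeq2 (1 was higher at an unadjusted p under 0.05) and *Dnaja1* fell (log2 fold change −0.32, adjusted p = 0.00878). Downwards voom called 1, DESeq2 3 and the block 4 of the 13, the block against 9.02% of all genes. At an unadjusted p under 0.05, 4 (30.8%) were lower, against 12.9% of all genes. *Dnajb1* and *Hsph1* had −0.42 and −0.31 (adjusted p = 0.0149 and 0.0357, with the block 0.000152 and 0.000124), and *Hsp90aa1*, named after its value was seen, was called with the block and not by edgeR without it (−0.22, adjusted p = 0.0966, with the block 0.00463). The median of the list was −0.02. Of 16 interferon-stimulated genes tested, which respond to double-stranded RNA and viral vectors, edgeR called 0, with 2 higher and 1 lower at an unadjusted p under 0.05, and voom, DESeq2 and the block called 0 as well. The 3 smallest p belonged to *Ifit2* (−0.35), *Mx2* (0.89) and *Usp18*, which was at 0 to 0.509 CPM in every library.

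Cell type markers moved beside these genes. Over all genes 2.48% rose and 4.00% fell, and with the block 6.50% and 9.02%. Of 10 neuronal markers 2 rose, the neurofilament genes *Nefm* (log2 fold change 0.68) and *Nefl* (0.48), and 3 fell, *Tubb3* (−1.68), *Map2* (−0.45) and *Rbfox3* (205, 184 and 169 against 147, 138 and 135 CPM). With the block *Snap25* was called higher as well (0.26, adjusted p = 0.0471, with the block 0.000353). The summed level of the 10 was 5361 to 5841 CPM in shCtrl and 4788 to 5264 CPM in sh*Pla2g4e*. Of 10 markers of proliferating cells and progenitors 1 fell, *Top2a* (adjusted p = 0.00613), with *Mki67* at −1.13 (adjusted p = 0.0148, with the block 1.51e-08) and a sum of 155 to 193 against 134 to 181 CPM. Microglia markers summed to 22.3 to 30.7 CPM and 24.8 to 25.5 CPM, with *Tmem119* and *Itgam* under 6 reads in every library and *Cx3cr1* at 0.0925 to 2.13 CPM. Endothelial and mural markers summed to 27.5 to 68.5 and 29.2 to 74.0 CPM, with *Cldn5* and *Kcnj8* under 6 reads in every library. For oligodendrocyte lineage markers the sums were 572 to 648 and 588 to 724 CPM, with 1 of 10 called, *Olig2*, lower with the block (−0.38, adjusted p = 0.0964, with the block 0.000528). The part of these cell types in the levels of the members was not tested.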

How the data were processed

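RNA-seq libraries of poly(A) RNA of primary neuronal cultures, 3 shCtrl and 3 sh*Pla2g4e*, were analysed, grouped by the sample titles. The authors deposited raw read counts per gene, 1 table per library, made with STAR (2.7.0d) and featureCounts (1.6.0) per the submitters' processing notes. The tables carry GRCm39 coordinates and GENCODE M28 genes, whereas the methods of the study name mm10. The kit was stranded, but the counting command holds no strand option, so that overlapping genes on opposite strands can share reads, and multi-mapping reads were not counted. Symbols came from GENCODE vM21 (52081 of 55357 genes matched), and of 2 identifiers for *Ddit3* the longer was used.

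Counts were tested with edgeR 4.0.16 (R 4.3.3): at least 6 reads in at least 1 library, TMM, glmQLFit and glmQLFTest, Benjamini-Hochberg adjustment and a threshold of 0.01. SEs came from the F statistic. limma 3.58.1 after voom, the study's own test, and DESeq2 1.42.0 were alternatives, with other scalings, filters, a threshold of 0.05, a replicate block and each library left out. The script was tested on simulated counts. Libraries of the same number in the labels deviated together from their group means over 10958 genes (correlations of 0.392, 0.189 and 0.462, against −0.392 to 0.106 between different numbers), so that blocked values are printed for members, and blocked counts for the other lists, where they change a call. No pair of libraries agreed within sampling noise.

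The members, gene lists and tests were chosen with earlier results of these data known. All 36 members are named, with values by library for those called with or without the block and, in each role, the one with the smallest p and the most abundant per kilobase. Of the pathway, heat shock and interferon lists the 3 smallest p are named, with all calls in the pathway lists. Of the cell type markers a few were set by rule, and those called with or without the block and the ones under 6 reads were named after their values were seen. Promoters were taken from RefSeq, 3′ UTRs from protein-coding transcripts of GENCODE vM21, and the hairpin from the study's list of oligonucleotides.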

Additional observations from a re-analysis of the deposited data

How the results depend on the processing

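With 1 library left out, between 695 and 1613 genes were called over all genes, 0 to 7 members rose and 1 or 2 fell, the median log2 fold change of the members was 0.14 to 0.23, and of the other pathway genes 6 to 14 rose and 1 to 4 fell. Upper-quartile scaling gave a median of 0.21 and 1 other pathway gene that fell. Scaling by library size alone gave 9 members that rose, a median of 0.25 and 1 other pathway gene that fell. These scalings moved the median over all genes tested as well, from 0.029 to 0.064 with upper-quartile scaling and to 0.103 by library size alone. Without a filter 2349 genes were called, 2 members fell, and 14 other pathway genes rose and 5 fell. DESeq2 called 2 members lower. It gave no adjusted p for 5514 genes, none of them a member. The replicate block, from the pairing of the libraries by number, called 3395 genes, with 14 members and 28 other pathway genes that rose and 2 and 11 that fell, and at a threshold of 0.05 there were 2813 genes, with 9 and 18 that rose and 2 and 6 that fell. DESeq2's size factors, at least 10 reads in every library, filterByExpr, limma after voom and the robust fit left every one of these counts within 1.5 times its value. The cause of the differences between settings was not tested.

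Of single members, *Edem1*, *Hspa5* and the others that passed kept their direction in every setting. The sign turned only for members that were never called. *Sesn2* had 0.00303 by library size alone and −0.210 to 0.0161 with a library left out. *Slc7a5* had 0.0252 with upper-quartile scaling, 0.0657 by library size alone, 0.00887 with at least 10 reads in every library, 0.00186 with filterByExpr and −0.0827 to 0.0461 with a library left out. *Dnajc3* had 0.0340, 0.0732, 0.0183 and 0.0113 under these 4 settings, 0.00119 without a filter, 4.06e-05 with voom, 0.00042 with the block and −0.0635 to 0.0399 with a library left out. With a library left out the range was −0.138 to 0.115 for *Psat1*, −0.268 to 0.248 for *Phgdh*, −0.195 to 0.0196 for *Mthfd2*, −0.0131 to 0.375 for *Cth* and −0.299 to 0.0196 for *Sdf2l1*. The 3 members with the fewest reads, *Sdf2l1* (at least 28 in a library), *Trib3* (38) and *Cth* (45), had the largest standard errors, 0.27 to 0.30.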
